A study of Mus musculus with 2 samples.

Results

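The genes described here are 10 genes of blood and lymphatic endothelium, the cell layer that lines vessels: Kdr, Tie1, Cldn5, Cdh5, Esam, Pecam1, Robo4, Egfl7, Emcn and Lyve1. They were found by name on the array, where Lyve1 carries the older name Xlkd1 and Esam the older name Esam1, and every gene probe with one of these names was taken. This gave 14 probes of the 41174 gene probes on the array. RNA came from pancreatic lymph nodes of female NOD mice, which are prone to autoimmune diabetes, all 16 weeks of age. Each of 2 hyperglycemic mice, with blood glucose above 500 mg/dl, was labelled with Cy5 and hybridised on its own array. Cy3 on both arrays was 1 pool of RNA from 2 euglycemic mice, with blood glucose below 200 mg/dl. A positive log2 ratio means more signal in the hyperglycemic mouse than in the pool. The replicates are the 2 hyperglycemic mice (n = 2), the spread among euglycemic mice was not measured, and Cy5 always held the hyperglycemic mouse, so a dye effect and the difference between the groups cannot be told apart. Lymph nodes are mixtures, and in such bulk RNA fewer endothelial cells and less RNA of a gene per endothelial cell cannot be told apart.

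Vessels serve a lymph node in 3 ways. Arterioles and capillaries carry blood, high endothelial venules admit lymphocytes from it, and lymphatic vessels bring fluid and cells from the drained organ, here the pancreas. Endothelial cells respond to vascular endothelial growth factors and angiopoietins through receptor tyrosine kinases such as Kdr and Tie1, and are held together by junction proteins such as claudins and cadherins. Most of the 10 genes are used as markers of blood vessel endothelium, Lyve1 is the lymphatic marker among them, and Pecam1 is also made by platelets and leukocytes.

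Signal over background in both channels set which of these probes could be read. The median signal of gene spots in Cy3 was 234 on array 1 and 81.2 on array 2, and in Cy5 37.7 and 38.2, over local backgrounds of 31 to 35. A probe was taken as well above background where the scanning software marked at least 0.5 of its spots so. In Cy3, 8 of the 14 probes were well above background on both arrays, 5 on array 2 alone and 1 on neither. In Cy5, 7 were well above background on both arrays, 1 on array 1 alone and 6 on neither. The scanner-signal fit required Cy3 or Cy5 to be well above background on each of the 2 arrays. The 5 probes with Cy3 well above background on array 2 alone were not so in either dye on array 1, and were not tested. This left 8 probes of 7 genes, and Tie1, Esam and Pecam1 had no tested probe. Of the 14 probes, 7 probes of 6 genes are in the deposited value table, namely 1 Kdr probe, Cldn5, Robo4, Egfl7, Emcn and both Lyve1 probes. These 7 are the endothelial probes well above background in both dyes in both mice. A gene with little signal in the hyperglycemic mice could not be among them, and the counts below are therefore counts of what could be measured and not of all 10 genes.

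**Figure D1:**
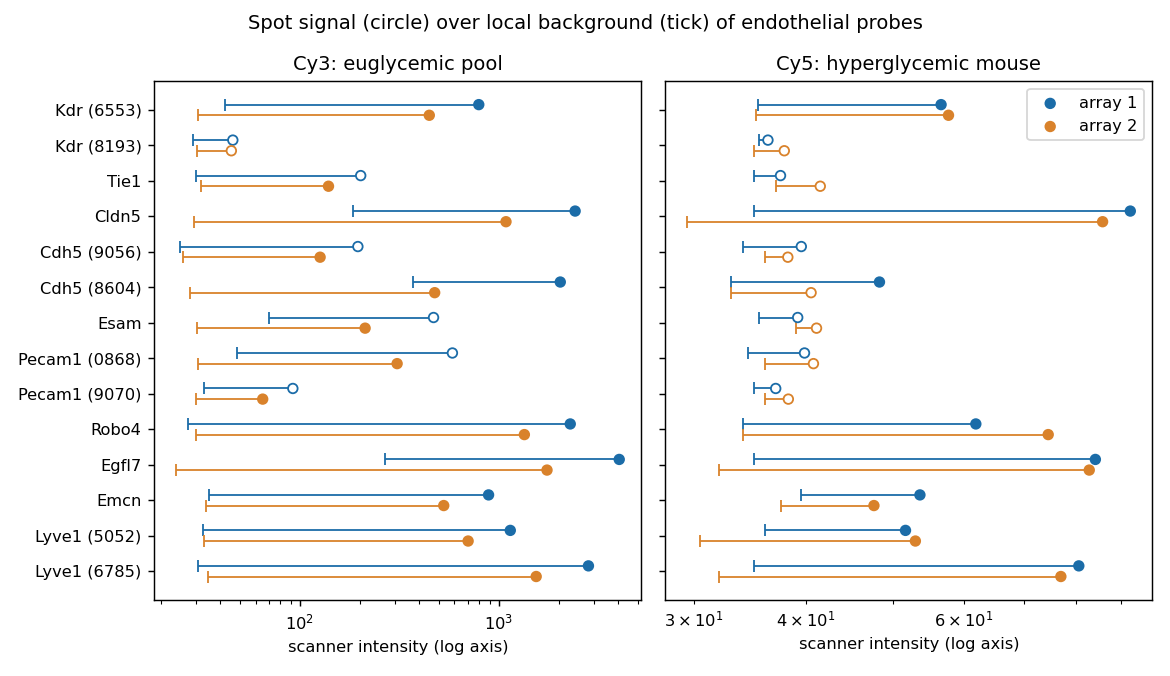
Scanner intensity of the 14 endothelial probes on a log axis, with Cy3 (euglycemic pool) on the left and Cy5 (hyperglycemic mouse) on the right; circles are the mean spot signal, ticks the local background, and filled circles mark signal well above background on that array. Digits in brackets are the end of the probe name. Each circle is to be read against its own tick: the Cy5 signal of Cldn5 is 92.1 over 35 on array 1, whereas that of Tie1 is 37.5 over 35.

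The comparison asks how these endothelial transcripts stand in hyperglycemic mice relative to euglycemic ones. In the deposited ratios Kdr and Cldn5 were higher in the hyperglycemic mice, 3.08-fold and 2.60-fold, Lyve1 was 1.64-fold and 1.48-fold higher by its 2 probes, and Robo4 1.36-fold. Egfl7 and Emcn did not pass the test there, and none of the measured genes was called lower. The measured genes were well above background in both dyes in both mice. A gene with little signal in the hyperglycemic mice could not be among them. In the scanner-signal fit no endothelial probe passed the test, and its ratios for Kdr and Cldn5 were 1.23-fold and 1.48-fold. Esam, Pecam1 and Tie1 were not well above background in Cy5 in either mouse and are given no fold, and Cdh5 was tested by 1 probe, which did not pass.

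By count, limma called 0 of 8 probes of the scanner-signal fit higher and 0 lower at an adjusted p under 0.05, and 2, Kdr and Cldn5, were at an unadjusted p under 0.05. Among all 8815 probes of that fit 4.74% were called higher and 0.488% lower. In the deposited ratios limma called 5 of 7 probes higher and 0 lower, against 25.1% of the 5072 probes higher and 18.4% lower. With processed signals over the 8815 probes, these 7 probes had the same ratios, and 0 endothelial probes and 0 of all probes were called. Counted by gene, 4 of 6 were higher in the deposited ratios, where 25.4% of genes were, and 0 of 7 in the scanner-signal fit, where 5.15% were. The median log2 ratio was 0.66 over the 7 endothelial probes against 0.06 over all probes in the deposited ratios. It was 0.16 over the 8 probes against -0.03 over all in the scanner-signal fit. Ratios were above 0 on both arrays for 6 of 7 endothelial probes in the deposited ratios, where 44.7% of all probes were, and for 6 of 8 in the scanner-signal fit, where 31.6% were. They were below 0 on both arrays for 1 of these 8, where 43.8% of all probes were, and for 0 of the 7 in the deposited ratios, where 37.4% were. Both fits read the same 2 arrays, so neither supports the other.

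**Figure D2:**
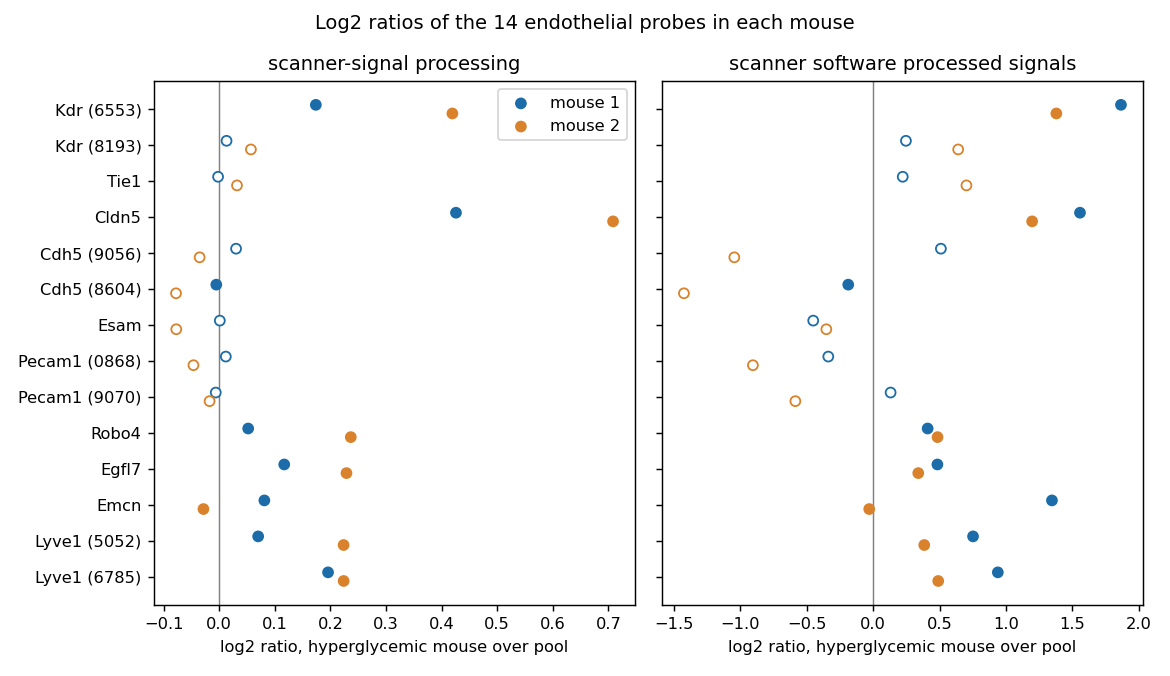
Log2 ratio of each hyperglycemic mouse over the euglycemic pool for the 14 probes, from the scanner-signal processing (left) and from the signals processed by the scanning software (right), which are also the deposited ratios where a probe is in that table. Filled circles mark signal well above background in both Cy5 and Cy3 on that array. The axes differ in scale: Kdr reads 0.17 and 0.42 on the left and 1.87 and 1.38 on the right, and every ratio of Robo4, Egfl7 and both Lyve1 probes is above 0 on both sides.

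Kdr, the main signalling receptor for vascular endothelial growth factor A, has 2 probes. One of them, A_51_P316553, lies on mm8 chromosome 5 from 76214981 to 76215040 and is printed 10 times on each array, with 8 spots kept on array 1 and 10 on array 2. Its mean Cy3 signal was 795 over a background of 42.1 on array 1 and 448 over 31 on array 2. Cy5 read 56.6 in mouse 1 and 57.7 in mouse 2, over backgrounds of 35.4 and 35.2. Cy5 signal was thus nearly the same in both mice, and the pool was the brighter channel before dye normalization. After dye normalization by the scanning software, the Kdr ratio was 1.87 in mouse 1 and 1.38 in mouse 2. The deposited mean was 1.62 ± 0.34 (SD, n = 2; limma adjusted p = 0.00108), and 1.7% of the probes in that table had a higher ratio. The same probe was at 0.17 and 0.42 in the scanner-signal fit, a mean of 0.30 ± 0.17 (limma adjusted p = 0.229). Over the alternatives other than median centring, the Kdr adjusted p ran from 0.00108 in the deposited ratios to 0.450 with no filter on dim probes.

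The 10 printings of a Kdr probe show the error of a single spot within an array, though they share 1 mouse and are not replicates of the condition. On array 1 the processed ratios of the first probe ran from 1.75 to 2.11 with an SD of 0.11, and on array 2 from 0.42 to 2.10 with an SD of 0.48. All 8 spots of array 1 and all 10 of array 2 were above 0. Spots therefore scattered more on array 2, and their range within that array was wider than the difference between the mice. The other Kdr probe, A_52_P478193, starts 28330 bases away, at 76243311 to 76243370. It was not well above background in either channel on either array, with Cy3 signals of 46.1 and 45.4 and Cy5 signals of 36.3 and 37.8. Its processed ratios, 0.25 and 0.64, come from signal at background, so the value for Kdr rests on 1 probe.

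**Figure D3:**
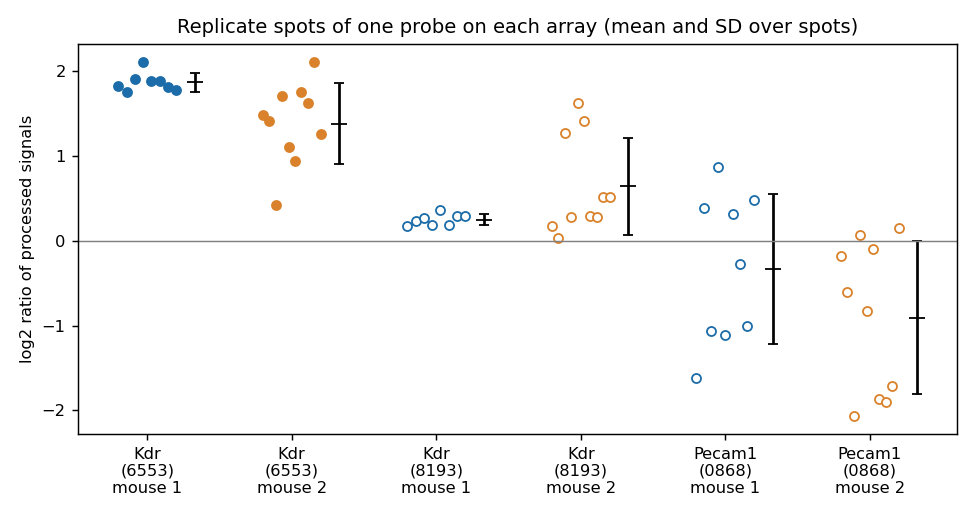
Log2 ratio of processed signals for each kept spot of the 3 endothelial probes printed 10 times on the array, with the mean and SD over spots beside them; filled circles mark Cy5 signal well above background in the probe. The first Kdr probe lies above 0 in every spot of both mice, while Pecam1 spots lie on both sides of 0, from -1.62 to 0.86 in mouse 1 and from -2.07 to 0.15 in mouse 2.

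Tie1, an endothelial receptor tyrosine kinase that works with the angiopoietin receptor Tek, was read by A_51_P177171 (chromosome 4, 117969459 to 117969518). Cy3 signal was 203 and 140, and Cy5 signal 37.5 and 41.5 over backgrounds of 35 and 37. Tie1 was not well above background in Cy5 in either mouse, and it was well above background in the pool on array 2 alone. Its processed ratios of 0.22 and 0.70 and its scanner-signal ratios of -0.002 and 0.03 were left untested, and no fold is given.

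Cldn5, the claudin that forms most endothelial tight junctions, was well above background in both dyes in both mice. The probe A_51_P189814 lies on chromosome 16 from 18691516 to 18691575. Cy5 signal was 92.1 over 35 in mouse 1 and 85.8 over 29.5 in mouse 2. Cy3 signal was 2423 over 185 on array 1 and 1089 over 29.5 on array 2. The Cy3 background beside this spot on array 1 was thus well above the 31 that was the array's median, while that of array 2 was not. The deposited ratios were 1.56 and 1.20, a mean of 1.38 ± 0.25 (limma adjusted p = 0.00141), and 2.96% of the probes in that table were higher. Cldn5 in the scanner-signal fit was at 0.43 and 0.71, a mean of 0.57 ± 0.20, with an unadjusted p of 0.00364 and a limma adjusted p of 0.0621. Over the alternatives other than median centring the Cldn5 adjusted p ran from 4.61e-05 when the variance was fitted with a trend on intensity to 0.235 with no filter. Cldn5 and Kdr were the endothelial probes called with no background correction, at 0.85 and 0.71, and with the trend on intensity.

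The other junction genes gave less Cy5 signal over background. Cdh5 encodes the cadherin of endothelial adherens junctions and was read by 2 probes that start 660 bases apart on chromosome 8. For A_52_P248604 (107033388 to 107033447) Cy3 signal was 2041 over a background of 371.5 on array 1 and 477 over 28 on array 2, and Cy5 signal was 48.3 and 40.5 over 33. This probe was well above background in Cy5 in mouse 1 alone and is not in the deposited value table. Its scanner-signal ratios were -0.005 and -0.08, a mean of -0.04 ± 0.05 (limma adjusted p = 0.834). Processed signals gave -0.19 and -1.42. The second probe, A_51_P309056 (107032728 to 107032787), had Cy5 signals of 39.5 and 38.2 that were not well above background, and its processed ratios were 0.51 and -1.05. The 2 Cdh5 probes differ in sign in mouse 1, and for neither was the mean further from 0 than the SD between the mice.

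Esam, an immunoglobulin-family adhesion molecule of endothelial tight junctions (A_51_P448325, chromosome 9, 37287630 to 37287689), had Cy3 signals of 471 and 213 and Cy5 signals of 39.2 and 41.1 over 35.5 and 39. Processed ratios were -0.45 and -0.35. Esam was not well above background in Cy5 in either mouse. Its scanner-signal ratios were 0.00096 and -0.08, and no fold is given. Pecam1, an adhesion molecule through which leukocytes cross endothelium, was read by A_51_P400868 (chromosome 11, interval 106497165 to 106499018). Its mean Cy3 signal was 586 and 309, and its mean Cy5 signal 39.9 and 40.8. On array 1, 4 of 9 kept spots were above 0 in processed ratio and 5 below, and on array 2, 2 of 10 were above and 8 below. A further Pecam1 probe, A_52_P349070 (106497834 to 106497893), read 0.13 and -0.59. Scanner-signal ratios of Pecam1 lay between -0.05 and 0.01 for both probes and both mice. No difference in Pecam1, Esam or Tie1 was detectable at this signal, and a difference in either direction may be present.

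Robo4, the endothelial member of the Roundabout receptors that stabilises vessels, was read by A_51_P138939 (chromosome 9, 37163623 to 37163682). Cy3 signal was 2290 and 1347, and Cy5 signal 61.9 and 74.6 over 34. Deposited ratios were 0.41 and 0.48, a mean of 0.45 ± 0.05 (limma adjusted p = 0.0494), the smallest of the called ratios, and 27.0% of the probes in the table were higher. The scanner-signal ratios were 0.05 and 0.24 (limma adjusted p = 0.499). Egfl7, a protein that endothelial cells secrete into the vessel wall (A_52_P15122, chromosome 2, 26414466 to 26414525), had Cy3 signals of 4037 and 1750. Cy5 signal for Egfl7 was 84.2 and 82.9. Its deposited ratios, 0.48 and 0.34, were close in size to those of Robo4, and the mean of 0.41 ± 0.10 did not pass the test (limma adjusted p = 0.0663). The scanner-signal ratios of Egfl7 were 0.12 and 0.23 (limma adjusted p = 0.397). Robo4 and Egfl7 thus lie just on either side of the threshold in the deposited ratios with nearly equal values.

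Emcn, a sialomucin of capillary and venous endothelium, differed more between the mice in the deposited ratios than the other endothelial genes there, though not from the scanner signals. Its probe A_51_P153124 (chromosome 3, 137368234 to 137368293) had Cy5 signals of 53.6 over 39.5 in mouse 1 and 47.6 over 37.5 in mouse 2, with Cy3 at 890 and 530. Deposited ratios were 1.35 in mouse 1 and -0.03 in mouse 2, so the mean of 0.66 ± 0.97 did not pass the test (limma adjusted p = 0.110). Scanner-signal ratios of Emcn were 0.08 and -0.03, with an SD of 0.08 (limma adjusted p = 0.898). The higher deposited value of Emcn is that of mouse 1 alone.

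Lyve1, a hyaluronan receptor of lymphatic endothelium that some macrophages also make, was read by 2 probes on chromosome 7 that start 1497 bases apart. For A_52_P686785 (110641838 to 110641897) Cy5 signal was 80.7 and 77.0 and Cy3 signal 2827 and 1544. Deposited ratios were 0.94 and 0.49, a mean of 0.71 ± 0.32 (limma adjusted p = 0.0151). The second probe, A_51_P155052 (110643335 to 110643393), had Cy5 at 51.7 and 53.0 and Cy3 at 1144 and 703. It gave 0.75 and 0.38, a mean of 0.57 ± 0.26 (limma adjusted p = 0.0297). Both probes of Lyve1 had the higher deposited ratio in mouse 1, and they differ from each other by less than the spread between the mice. The probes were at 0.21 ± 0.02 and 0.15 ± 0.11 in the scanner-signal fit (limma adjusted p = 0.301 and 0.482), with the higher value in mouse 2 (0.20 and 0.22, and 0.07 and 0.22) and all 4 values above 0. Lyve1 is the gene of the 10 with more than 1 probe measured in both channels. Over the alternatives other than median centring, limma's adjusted p ran from 0.0151 to 0.311 and from 0.0297 to 0.665 for these Lyve1 probes, from 0.0494 to 0.731 for Robo4, from 0.0663 to 0.482 for Egfl7, from 0.110 to 0.906 for Emcn and from 0.223 to 0.849 for the tested Cdh5 probe.

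Promoter windows from RefSeq (build GRCm38.p6, 250 bases before to 50 after the start) matched 6 of the 10 genes, in 8 windows. Those of Kdr, Cldn5 and Robo4, the genes called higher in the deposited ratios that have a window, are shown 5′ to 3′ on the strand of the gene. The choice rests on that call alone, and none of them was called in the scanner-signal fit. Robo4 passed at a limma adjusted p of 0.0494, and Egfl7, which also has windows, did not at 0.0663. Capitals mark AGGAAG, a core that ETS factors bind, or GGGCGG, the GC box, on either strand. The Kdr window is chr5:75978406-75978705 on the minus strand, that of Cldn5 chr16:18776597-18776896 on the plus strand, and that of Robo4 chr9:37401722-37402021 on the plus strand.
Kdr: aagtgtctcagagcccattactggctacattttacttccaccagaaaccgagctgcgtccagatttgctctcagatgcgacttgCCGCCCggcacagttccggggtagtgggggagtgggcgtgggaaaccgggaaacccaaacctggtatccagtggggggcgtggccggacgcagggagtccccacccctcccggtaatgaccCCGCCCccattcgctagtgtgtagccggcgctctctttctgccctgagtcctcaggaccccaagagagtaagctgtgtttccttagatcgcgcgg
Cldn5: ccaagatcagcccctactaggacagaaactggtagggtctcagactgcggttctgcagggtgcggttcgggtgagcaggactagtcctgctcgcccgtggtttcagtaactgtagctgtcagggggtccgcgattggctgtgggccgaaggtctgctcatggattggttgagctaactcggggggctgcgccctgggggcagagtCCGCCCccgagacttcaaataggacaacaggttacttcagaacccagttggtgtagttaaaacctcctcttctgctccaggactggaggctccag
Robo4: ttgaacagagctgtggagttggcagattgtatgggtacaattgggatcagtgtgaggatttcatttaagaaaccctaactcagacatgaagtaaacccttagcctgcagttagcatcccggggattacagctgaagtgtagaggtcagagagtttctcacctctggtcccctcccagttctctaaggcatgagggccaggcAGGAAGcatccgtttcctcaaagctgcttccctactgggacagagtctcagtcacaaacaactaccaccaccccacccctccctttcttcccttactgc
Kdr holds 2 matches to GGGCGG and 0 to AGGAAG, Cldn5 holds 1 match to GGGCGG, and Robo4 holds 1 to AGGAAG. Over the 8 windows, 5 held AGGAAG, 3 held GGGCGG and 0 held TATAAA, the TATA box, and no match overlapped another motif. Among all 32851 windows of this length, 35.4%, 35.7% and 13.6% held these letters. These counts are a description of the windows and were not tested.

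Brightness bears on the ratios of both fits. Kdr and Emcn lie in the dimmest decile of the deposited table by intensity, where the median log2 ratio was 0.49 and 245 of 507 probes were called higher against 11 lower. Lyve1 probe A_51_P155052 lies in the next decile, at a median of 0.10. Cldn5, Robo4, Egfl7 and Lyve1 probe A_52_P686785 lie in deciles 6 and 7, at medians of -0.02 and -0.03, so the ratio of Cldn5 stands further from its brightness class than that of Kdr. In the scanner-signal fit 358 of the 418 higher calls lay in the brightest decile, where the median was 0.64. No probe of the 10 genes lies there, and they span deciles 3 to 8. Cy3 also differed between the arrays: its negative controls had an SD of 297 on array 1 and 5.46 on array 2. The part of these differences in the endothelial ratios was not tested.

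Other genes of endothelium were read from lists of 77 genes in all, of which 40 were tested in the scanner-signal fit and 27 in the deposited ratios. Of those tested in the scanner-signal fit limma called 4 higher and 0 lower, with a median of -0.01. In the deposited ratios 8 were higher and 8 lower, with a median of -0.13, and 25.4% of all genes were higher and 18.2% lower there. Endothelial genes beyond the 10 thus went both ways in the deposited ratios, as all genes there did. These shares over all genes stand beside the counts of each list below as well. The genes higher in both fits were Ramp2, Mmrn2 and Sparcl1, at 0.96, 1.04 and 1.97 in the deposited ratios. With no filter on dim probes, and with processed signals over the probes of the scanner-signal fit, none of these 3 passed, at adjusted p from 0.0575 to 0.211. Ramp2 and Mmrn2 also did not pass with background offset 10 or a filter on both channels, at limma adjusted p from 0.0839 to 0.101. Sparcl1 passed in both, at 0.0264 and 0.0409.

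Among ligands, 2 of 7 were tested in the scanner-signal fit and none was called. Vegfa, the ligand of Kdr, was at 0.02 and 0.06 (limma adjusted p = 0.833), with Cy5 near background in both mice. Processed signals turned Vegfa to -0.75 and -0.67 and no background correction to a mean of -0.10, so no direction is given for it. Vegfb was at -0.03 and -0.04. Of 14 further receptors 7 were tested and 1 called. Ramp2, which makes the adrenomedullin receptor together with Calcrl, was at 0.52 and 0.74 in the scanner-signal fit (limma adjusted p = 0.0394) and at 0.96 ± 0.06 in the deposited ratios (adjusted p = 0.00331). Calcrl itself, named after its value was seen, was at -0.12 and -0.37 (adjusted p = 0.299) and was lower in the deposited ratios at -0.45 ± 0.10 (adjusted p = 0.0484). The 2 partners of this receptor therefore had opposite signs.

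Of 13 further junction and adhesion genes 8 were tested in the scanner-signal fit and none was called. In the deposited ratios 2 of 6 were higher and 2 lower, where 25.4% of all genes were higher and 18.2% lower. F11r, a junctional adhesion molecule also made by epithelium and platelets, was higher there at 1.26 ± 0.05, and Icam2, an adhesion molecule of endothelium and lymphocytes, was lower at -1.26 ± 0.07. Short of the threshold, F11r was at 0.20 and 0.54 and Icam2 at -0.39 and -0.87 from the scanner signals. Transcription factors gave 0 calls of 4 in the scanner-signal fit and 1 higher and 2 lower of 3 in the deposited ratios. Mef2c was higher there at 0.94 and Ets1, which lymphocytes make too, lower at -1.09.

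Among 16 other blood vessel markers, 10 were tested and 2 higher in the scanner-signal fit. Sparcl1, a secreted matrix-associated protein, was at 1.74 and 1.40 there (2.97-fold, limma adjusted p = 0.00649), and Mmrn2, a matrix protein of endothelium, at 0.47 and 0.74 (adjusted p = 0.0492). Of the lymphatic markers 5 of 9 were tested in the scanner-signal fit and none was called, and Prox1 and Pdpn of that list had no tested probe. Mmrn1 was higher in the deposited ratios at 1.86 ± 0.26 and stood at 0.29 and 0.66 from the scanner signals (adjusted p = 0.125). Ccl21a, a chemokine of lymphatic endothelium and lymph node stroma, was at 1.93 and 0.45 in the scanner-signal fit (adjusted p = 0.156) but at -0.42 ± 0.19 in the deposited ratios (adjusted p = 0.0690). High endothelial venule markers gave 1 call of 4 in the scanner-signal fit: Glycam1, a mucin that carries the L-selectin ligand, at 1.84 and 0.98 (adjusted p = 0.0307). Glycam1 too had the opposite sign in the deposited ratios, -0.42 ± 0.04 (adjusted p = 0.0621), so no direction is given for Glycam1 or Ccl21a.

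**Figure D4:**
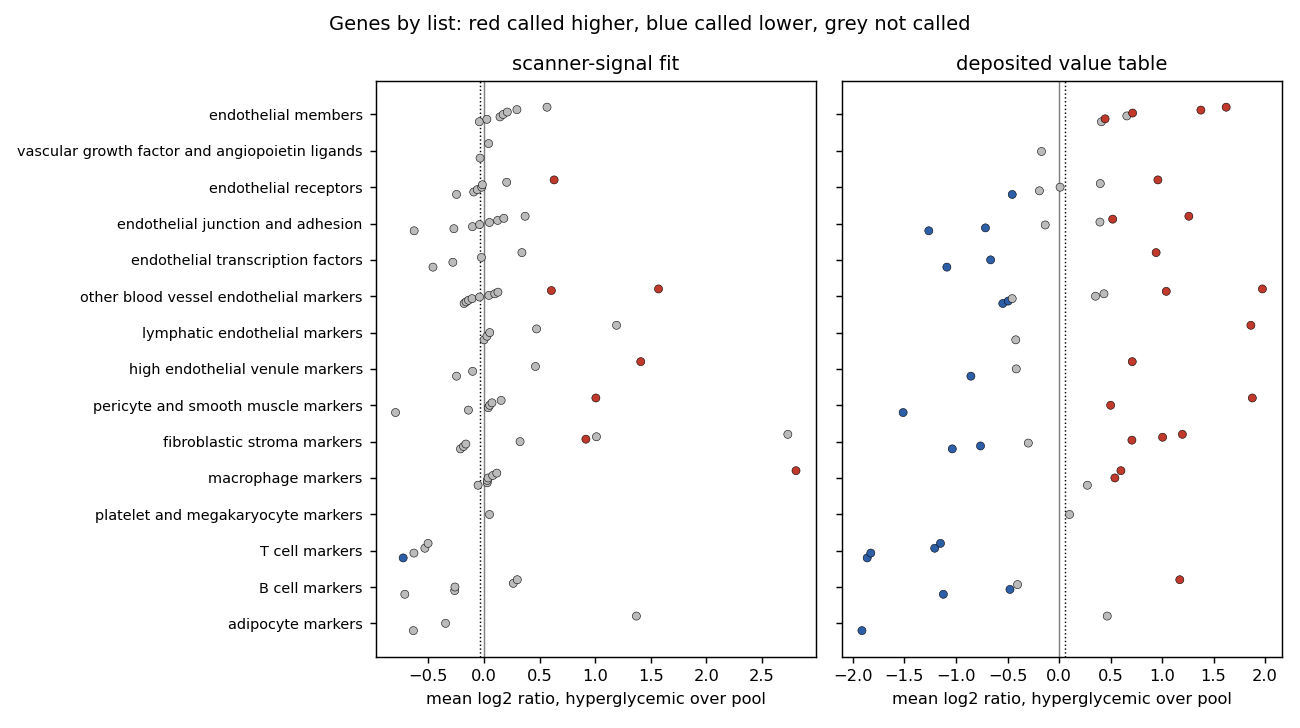
Mean log2 ratio of hyperglycemic mice over the pool for each tested gene of each list, one point a gene, in the scanner-signal fit (left) and the deposited ratios (right); the dotted line is the median of all tested probes, and the exocrine list, whose ratios reach 6.56, is not drawn. In the deposited ratios all 6 endothelial genes at the top lie right of 0 with 4 called higher. The receptor, junction, transcription factor, blood vessel and high endothelial venule lists hold both higher and lower calls. The lymphatic list holds 1 higher and 0 lower of 2 genes, and the 1 ligand drawn was not called. Genes of the top list that were not well above background in both dyes in both mice are not drawn on the right.

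Some markers of other cells were called as well, and these are the levels that stood beside the endothelial ones. Of 10 pericyte and smooth muscle markers 7 were tested, and Tagln was higher in both fits, at 1.08 and 0.93 from the scanner signals (adjusted p = 0.0112) and 1.88 in the deposited ratios. Tagln did not pass with processed signals or no filter, at limma adjusted p of 0.0585 and 0.0589. Acta2, the smooth muscle actin of the same list, named after its value was seen, had the opposite sign, at -0.48 and -1.11 from the scanner signals (adjusted p = 0.0750), and was lower in the deposited ratios at -1.51 ± 0.31 (adjusted p = 0.00116). Fibroblastic stroma markers gave 1 call of 7, the chemokine Cxcl13 (1.21 and 0.63, adjusted p = 0.0435). Of 9 macrophage markers 7 were tested and Marco alone was called, at 3.61 and 2.00 from the scanner signals (adjusted p = 0.0220) and 0.60 in the deposited ratios. Neither Cxcl13 nor Marco passed with offset 10, processed signals, no filter or the filter on both channels, at limma adjusted p from 0.0718 to 0.279. Both passed as higher with no background correction, with an intensity trend and in the deposited ratios. The platelet factor Pf4 was at 0.01 and 0.09. T cell markers were below 0 on both arrays for 4 of 4 tested genes, 1 of them called lower in the scanner-signal fit and 4 in the deposited ratios, with Cd3d at -0.67 and -0.79 (adjusted p = 0.0220). Cd3d did not pass with offset 10, processed signals, no filter or the filter on both channels, at limma adjusted p from 0.0524 to 0.0745. B cell markers were not called in the scanner-signal fit, where Ms4a1 was at -0.49 and -0.93 (adjusted p = 0.0561) and Cd79b at 0.44 and 0.16, nor were adipocyte markers, where Fabp4 was at 1.97 and 0.77 and Cidec at -0.44 and -0.83. Exocrine pancreas markers were higher for 7 of 7 in the scanner-signal fit, with trypsin Try5 at 7.88 and 5.24, Ctrb1 at 7.26 and 4.16, Clps at 6.48 and 4.30 and Cpa1 at 6.45 and 3.56. Their deposited ratios were smaller, at 1.38 and 1.64 for Try5, 1.36 and 0.86 for Ctrb1, 0.78 and 1.03 for Clps and 0.79 and 0.60 for Cpa1. With a trend on intensity in the variance none of these 4 passed, at adjusted p from 0.239 for Cpa1 to 0.344 for Try5. Nor did any pass with processed signals, no filter or the filter on both channels, at limma adjusted p from 0.0514 to 0.241. With offset 10 Cpa1 and Ctrb1 did not pass, while Clps and Try5 did. All 4 passed as higher with no background correction and in the deposited ratios. In the deposited ratios 6 of these 7 exocrine genes were higher and 1 lower, as were 2 and 1 of 3 pericyte genes and 3 and 2 of 6 stroma genes. The counts were 2 and 0 of 3 macrophage genes, 1 and 2 of 4 B cell genes, 0 and 1 of 2 adipocyte genes and 0 and 0 of 1 platelet gene. Over all genes of the deposited ratios 25.4% were higher and 18.2% lower. The counts of these short lists, T cell markers included, were not tested against those shares.

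Summed processed signal of the 7 tested endothelial genes was 10178 and 11805 in the hyperglycemic mice and 5553 and 8082 in the pool on the same arrays. T cell markers summed to 4391 and 8024 against 12015 and 18711, so on this scale the sum of the T cell markers was lower and that of the 7 endothelial genes higher in both mice. The other endothelial lists did not all follow. Lymphatic markers summed to 18730 and 24111 against 20639 and 31694, lower in both mice. High endothelial venule markers, at 24004 and 39999 against 29170 and 47608, were also lower. So were endothelial transcription factors, at 4219 and 5674 against 4892 and 7520. Among the lymphatic markers, however, only Ccl21a had a mean processed ratio below 0, at -0.42. The median processed ratio of that list was 0.36, so its sum does not describe most of its genes. Other blood vessel markers summed to 17393 and 24243 against 9609 and 15774 and receptors to 8601 and 10961 against 5337 and 8640, both higher. The median processed ratio of these blood vessel markers was -0.05, with 4 of 10 genes above 0 on both arrays and 5 below. That of the receptors was 0.01, with 3 of 7 above and 1 below, so these 2 sums do not describe most of their genes either. Junction genes summed to 11093 and 13923 against 10410 and 15426. Pericyte markers summed to 9551 and 11320 against 5949 and 9628, macrophage markers to 43785 and 56480 against 26734 and 42335, and exocrine markers to 1154820 and 1836360 against 685307 and 937473. The part of these other cells in the endothelial ratios was not tested.

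**Figure D5:**
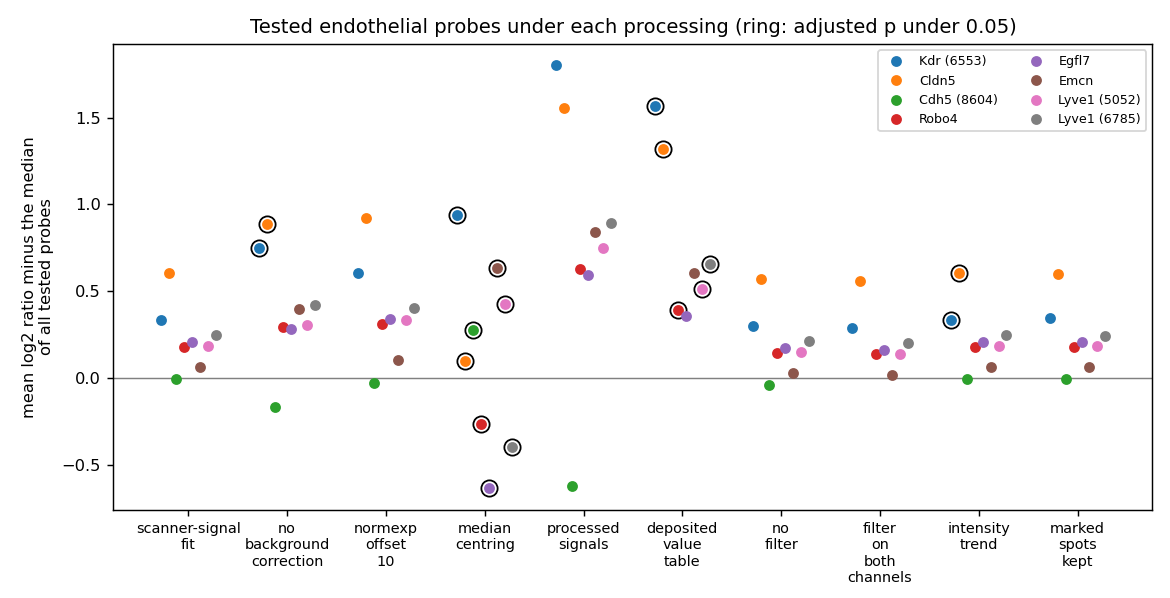
Mean log2 ratio of the 8 tested endothelial probes minus the median of all tested probes, under each processing; a black ring marks an adjusted p under 0.05 in the test of the ratio itself against 0, before the median was taken off. Cldn5 and Kdr lie above 0 in every column, while the rings under median centring belong to ratios that are all negative, because the median of all probes there is -2.01.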

How the data were processed

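Scans were read with Feature Extraction 10.7.3.1, per the file headers. Mean spot signal and local background are raw scanner intensity in the deposited files. Processed signals are also intensity, from which the software took background, replaced signals at background by surrogates and normalized the dyes, per the file headers. The log10 ratio of Cy5 over Cy3 processed signals stands beside them, per the file headers. The deposited value table holds log2 ratios equal to those log10 ratios times a slope of 3.32. Its columns have medians of 0.08 and 0.03. How its probes were chosen is not given in the sources used here. It holds 5072 gene probes, and 5072 gene probes of the arrays were well above background in both dyes on both arrays. Per the labels' protocols, 1 ug of total RNA was amplified and labelled. Whether the RNA of the pool was labelled once or for each array is not given in the sources used here.

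For the scanner-signal fit, background was corrected with normexp (offset 50), ratios were normalized with loess (span 0.3), spots marked as outliers or non-uniform (338 and 184) were left out, replicate spots were averaged, and probes were kept where Cy3 or Cy5 was well above background on each array. No spot was saturated. The deposited ratios were fitted as they stand. limma 3.58.1 (R 4.3.3) tested each mean against 0 with 1 residual degree of freedom, two-sided, with Benjamini-Hochberg adjustment over all tested probes and a threshold of 0.05; every adjusted p is limma's. A listed gene with several probes took the brightest tested one. From other lists the text names up to 4 called genes with the largest ratio, or up to 2 where none was called. A member probe that was not well above background in Cy5 on either array is given no fold. The fit was tested on simulated data. The number of arrays limits the precision. The members and lists were chosen with earlier results of these data known. Probes are placed on mm8, per the files, and promoter windows are of GRCm38.p6.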

Additional observations from a re-analysis of the deposited data

How the results depend on the processing

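Alternatives changed the calls of the endothelial probes, and the cause was not tested. Against 0 of 8 called in the scanner-signal fit, 2 were higher with no background correction, 2 with an intensity trend and 5 of 7 in the deposited ratios. Median centring called 8 lower. Processed signals, fitted over 8815 probes, called 0 of 8, though the 7 probes also in the deposited ratios had the same ratios in both. The deposited ratios were fitted over 5072 probes. For Kdr, limma's adjusted p was 0.0602 with processed signals and 0.00108 in the deposited ratios. Over all probes (418 higher, 43 lower), the counts were 1180 and 919 with no background correction, 93 and 9 with offset 10, 1 and 8618 with median centring, 1274 and 931 in the deposited ratios, 24 and 0 with no filter, 94 and 0 with the filter on both channels, 666 and 514 with an intensity trend, and 0 and 0 with processed signals, where 3396 of 8815 probes had an unadjusted p under 0.05 in limma. Higher calls made up 90.7% of calls in the scanner-signal fit, 56.2% with no background correction, 57.8% in the deposited ratios, 56.4% with an intensity trend, 0.0116% with median centring, and 100% with no filter or with the filter on both channels. For the other endothelial genes (4 higher, 0 lower), higher calls numbered 11 with no background correction, 1 with offset 10 or the filter on both channels, 8 in the deposited ratios, 6 with an intensity trend, and 0 with median centring, processed signals or no filter; lower calls numbered 2 with no background correction or an intensity trend, 39 with median centring and 8 in the deposited ratios. Keeping the marked spots, chosen after seeing the data, left 0 endothelial probes called.

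Median centring moved the median of all probes to -2.01, and its ratios fell with brightness (Spearman's rho of -0.958 across probes, which are not independent). It reversed Kdr to -1.07, Cldn5 to -1.91, Robo4 to -2.28, Egfl7 to -2.65, Emcn to -1.38 and the Lyve1 probes to -1.59 and -2.41. Relative to that median, Kdr was at 0.94, Cldn5 at 0.10, Robo4 at -0.27 and Egfl7 at -0.64. Of the other named genes it reversed Vegfa to -1.21, Ramp2 to -2.61, F11r to -1.95, Mef2c to -2.23, Mmrn2 to -2.65, Sparcl1 to -1.75, Mmrn1 to -1.30, Ccl21a to -3.98, Glycam1 to -3.96, Tagln to -2.06, Cxcl13 to -3.13, Marco to -2.83, Pf4 to -2.20, Cd79b to -4.15, Fabp4 to -3.34, Cpa1 to -2.21, Ctrb1 to -1.67, Clps to -1.91 and Try5 to -1.16. With no background correction Vegfa was at -0.10 and Cd79b at -0.088. With processed signals Vegfa was at -0.71, and with processed signals and in the deposited ratios Ccl21a was at -0.42, Glycam1 at -0.42 and Cd79b at -0.40.

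No paired analysis was possible because both mice share 1 pool as control. Leaving out either mouse leaves no residual degrees of freedom, so each mouse's own ratio stands in the report without a test. Signal over background limits what can be read. In Cy5, 6 of the 14 probes were well above background on neither array. In Cy3, 5 were so on array 2 alone and 1 on neither.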
